A study of Mus musculus with 105 samples.

Results

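The BTG and TOB genes encode a small family of anti-proliferative proteins, and all 6 mouse members (Btg1, Btg2, Btg3, Btg4, Tob1 and Tob2) were followed here by their gene symbols. Each of the 6 had a row in the tables of ribosome footprints and mRNA, out of 20756 genes, and in the table of poly(A) tail lengths, out of 20603. The proteins share an N-terminal domain that binds the CNOT7 and CNOT8 deadenylases, and so they can bring the CCR4-NOT complex, which shortens poly(A) tails, to an mRNA. TOB1 and TOB2 also carry a motif that binds the cytoplasmic poly(A)-binding protein. BTG4 is made in the oocyte and is required in the mouse for the clearance of maternal mRNA around meiotic maturation, when the oocyte does not transcribe and changes protein output mainly through translation and tail length.

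Measurements came from full-grown oocytes (FGO), which are arrested in meiotic prophase, and from metaphase II (MII) oocytes, the ovulated stage. Ribosome footprints (the mRNA stretches that ribosomes protect from RNase I) were profiled in 18 single FGO and 20 single MII oocytes of wild-type genotype. MII oocytes labelled Btg4 Het (heterozygous, the control here, which carries 1 mutant copy) and Btg4 KO (knockout) gave 3 and 3 footprint libraries and 2 and 2 libraries of polyadenylated mRNA. Tail lengths were read in 1 wild-type FGO, 1 wild-type MII, 1 Het MII and 2 KO MII libraries. Per the labels' protocols, the females were C57BL/6, 8 or 5 weeks old, and received 5 IU PMSG and 5 IU hCG, hormones that stimulate follicle growth and ovulation. Which age or hormones a given library had, how many oocytes a Btg4 library holds, whether libraries come from separate animals, and which piece of Btg4 the mutation removes are details that the sources used here do not give. The tail library of FGO carries the stage label SN, which the single FGO do not carry.

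Values are FPKM (fragments per kilobase of transcript, scaled to the fragments mapped), which are relative to each library's total and adjusted for transcript length. The single-oocyte and Btg4 tables were normalized separately, and so levels are compared within a table. Footprint values came in steps, and the worth of 1 read was inferred for each member and library from them. On that scale, with MII oocyte 20 set to 1, relative depth had a median of 4.95 in FGO (2.39 to 10.3), 1.30 in single MII oocytes (0.963 to 3.77), 2.21 in Het (1.69 to 4.35) and 3.39 in KO (2.40 to 3.53). MII oocytes 2 and 4 stand apart: across all genes their log2(FPKM + 1) values correlated with the mean of the FGO at r = 0.80 and 0.83, and those of the other 18 MII oocytes at 0.45 to 0.63. All 12 oocyte markers were above 0 in at least 1 library of each group. Of the 17 follicle cell markers, 12 were at 0 in all Het footprint libraries, 13 in all KO footprint libraries, and 7 in all mRNA libraries of each genotype. Amh, Amhr2 and Foxl2, defining genes of follicle cells, were at 0 in every Btg4 library. Fshr, Has2, Inhba and Ptgs2 were above 0 in at least 1 mRNA library of each genotype. The 17 markers summed to 240 to 419 FPKM in Het footprints and 412 to 557 in KO footprints. In mRNA the same sum ran the other way, 358 to 442 FPKM in Het and 268 to 310 in KO, and in single oocytes it was 1.04 to 105 FPKM in FGO (median 28.3) and 69.9 to 227 in MII (median 135). The 10 blood and immune markers summed to 0 to 882 FPKM in FGO, where 9 of 18 oocytes listed no hemoglobin gene, and to at most 110 in single MII oocytes.

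The sequences just upstream of the start differed among the members that the results turn on. The 250 bases before the start are given for Btg4, whose level differed most between the stages, and for Btg2, Tob1 and Tob2, which were higher in KO in at least 1 assay. They are RefSeq sequences of build GRCm38.p6, 5′ to 3′ on the gene's strand. All 6 members matched the table. Capitals mark TATAAA (a core promoter motif), the CCAAT box and the cAMP response element, TGACGTCA, searched on both strands, so a motif can appear as its reverse complement.
Btg4: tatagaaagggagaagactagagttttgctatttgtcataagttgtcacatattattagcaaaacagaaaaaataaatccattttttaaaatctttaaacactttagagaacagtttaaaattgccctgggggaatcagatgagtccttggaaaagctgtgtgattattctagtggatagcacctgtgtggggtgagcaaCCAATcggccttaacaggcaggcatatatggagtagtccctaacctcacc
Btg2: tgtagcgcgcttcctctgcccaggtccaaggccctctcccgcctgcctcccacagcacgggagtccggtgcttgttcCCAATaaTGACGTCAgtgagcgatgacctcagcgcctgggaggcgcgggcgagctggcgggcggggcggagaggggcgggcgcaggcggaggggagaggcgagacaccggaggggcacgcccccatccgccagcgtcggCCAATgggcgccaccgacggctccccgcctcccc
Tob1: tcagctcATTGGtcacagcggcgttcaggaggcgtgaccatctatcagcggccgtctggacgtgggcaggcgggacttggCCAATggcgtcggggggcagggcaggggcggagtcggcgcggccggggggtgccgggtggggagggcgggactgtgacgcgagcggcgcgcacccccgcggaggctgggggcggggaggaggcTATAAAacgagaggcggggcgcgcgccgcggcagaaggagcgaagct
Tob2: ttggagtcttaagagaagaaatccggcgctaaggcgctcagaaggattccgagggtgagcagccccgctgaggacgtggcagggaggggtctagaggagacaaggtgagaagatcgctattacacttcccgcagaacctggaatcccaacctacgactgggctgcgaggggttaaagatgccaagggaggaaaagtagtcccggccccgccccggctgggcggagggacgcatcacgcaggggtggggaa
The windows are chr9:51115751-51116000 (plus strand) for Btg4, chr1:134079156-134079405 (minus strand) for Btg2, chr11:94211204-94211453 (plus strand) for Tob1 and chr15:81858327-81858576 (minus strand) for Tob2. Btg4 had a GC content of 38.0%, lower than in all but 8.47% of 32851 promoters (median 52.4%), and 1 CpG. Btg2 had 73.2% GC and 27 CpGs, Tob1 73.6% and 32, and Tob2 60.4% and 16, against a median of 6 CpGs over all promoters. The Btg2 window held 1 match to TGACGTCA, found in 1.55% of all windows, and 2 to CCAAT, found in 33.8%. Tob1 held 1 match to TATAAA, found in 12.4%, and 2 to CCAAT, Btg4 held 1 to CCAAT, and Tob2 held none of the 3 motifs. The GC box GGGCGG (32.7% of windows) had 3 matches in Btg2, 3 in Tob1, 2 in Tob2 and 0 in Btg4, and TAATTG, a Nobox element (7.17%), had 0 in all 4. Of the E-box CANNTG, found in 66.2% of windows, Btg4 had 2 matches and the other 3 had 0. No 2 different motifs overlapped in these windows. A match describes the letters and is not evidence of a site in use.

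Btg4 was the most abundant member by FPKM in MII oocytes and was near the detection limit in most FGO. In single FGO its footprint level was 0 in the lowest oocyte, 2.94 FPKM in the median one and 79.4 FPKM in the highest (FGO 18), and it was above 0 in 11 of 18. In single MII oocytes it was 404 FPKM in the lowest (oocyte 4), 2041 in the median and 3286 in the highest (oocyte 7), and it was detected in 20 of 20. Every MII oocyte lay above every FGO, as for 1.91% of the 10068 genes that averaged 1 FPKM or more in a stage. The means were 12.3 and 2056 FPKM, a difference of 7.27 on the log2(FPKM + 1) scale against a median of -0.26 over those genes. In mean MII footprints Btg4 ranked 22 among all genes. The inferred reads were 116 over all FGO and 6115 over all MII oocytes.

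Tob2 had the highest mean of the members in FGO and was at 0 in most MII oocytes. It was above 0 in 18 of 18 FGO, at 1.73 FPKM in the lowest, 13.7 in the median and 50.9 in the highest (FGO 4). In MII it was above 0 in 7 of 20 oocytes, and the lowest and median were 0 and the highest was 27.8 FPKM (oocyte 2). The ranges overlapped, since oocytes 2 and 17 of MII, at 27.8 and 24.4 FPKM, were above the FGO median. Because MII libraries were shallower, reads were pooled over oocytes. Tob2 then had 273.5 reads in FGO, or 19.5 FPKM with a 95% Poisson interval of 17.2 to 21.9, and 22 reads in MII, or 4.58 FPKM with an interval of 2.87 to 6.93. Without MII oocytes 2 and 4, which stand apart, the MII value was 9 reads, or 2.13 FPKM (0.976 to 4.05). The difference of the means was -1.82 on the log2 scale with all oocytes and -2.37 without those 2. These intervals cover counting error only, since no molecular identifiers are stated, and fewer footprints per oocyte cannot be told apart from less of the mRNA.

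The other members gave few footprints at either stage. Tob1 was above 0 in 11 of 18 FGO (median 2.48 FPKM, highest 19.4) and 11 of 20 MII oocytes (median 1.76, highest 11.5), and its pooled levels of 4.63 (3.60 to 5.86) and 3.44 (2.02 to 5.46) FPKM overlapped in their intervals. Btg3, an anti-proliferative member also called ANA, was above 0 in 10 of 18 FGO (median 0.763 FPKM, highest 10.3) and in 2 of 20 MII oocytes (highest 3.20). Its pooled levels were 1.50 FPKM from 28 reads and 0.469 FPKM from 3 reads, a ratio of MII to FGO of 0.313 with a counting interval of 0.0609 to 1.01. Its log2 difference of -0.97 became -0.09 after oocytes with a listed hemoglobin gene were left out, which kept 9 FGO and 19 MII oocytes. Btg2, a p53 target that is induced fast by growth and stress signals in other cells, was above 0 in 4 of 18 FGO (highest 19.9 FPKM) and 2 of 20 MII oocytes (highest 15.2), from 11 and 2 reads. Without FGO 8 its log2 difference moved from -0.60 to 0.00. Btg1, a close relative of Btg2, was above 0 in 7 of 18 FGO (highest 21.6 FPKM) and 5 of 20 MII oocytes (highest 54.6, oocyte 7), from 15.3 and 11 reads. Its log2 difference of 1.11 was 0.60 without MII oocyte 7 and -0.12 with each oocyte scaled to the same upper quartile, a scaling that moved the median of all genes from -0.26 to -1.17. Btg1 may share reads with its processed pseudogenes, and so its values are uncertain. For Tob1, 80.8% of values above 0 were whole reads, the smallest share of the members, and so its counting intervals are approximate.

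**Figure D1:**
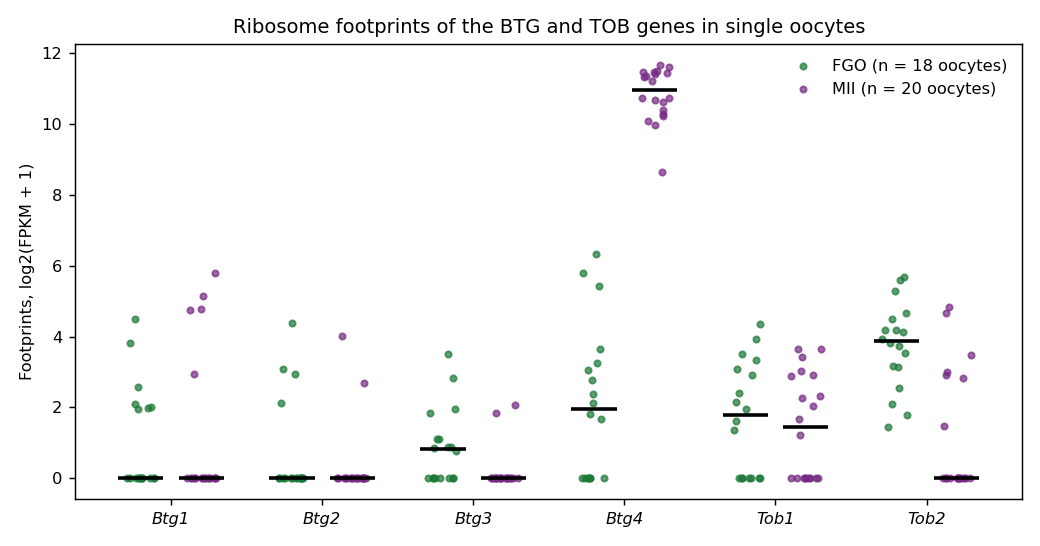
Footprint level on the log2(FPKM + 1) axis for each member in 18 single FGO (green) and 20 single MII oocytes (purple), with a point per oocyte and a black bar at the median. Btg4 lies higher in every MII oocyte than in any FGO, and Tob2 is above 0 in 18 FGO and 7 MII oocytes.

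By mean level, the order in FGO was Tob2 (17.3 FPKM), Btg4 (12.3), Tob1 (4.53), Btg1 (2.89), Btg2 (2.08) and Btg3 (1.53). Tob2 and Btg4 overlapped widely there, since the SD over oocytes was 14.6 and 22.6 FPKM, and so did the 4 below them. In MII the order was Btg4 (2056 FPKM), Btg1 (7.39), Tob2 (4.19), Tob1 (3.35), Btg2 (1.03) and Btg3 (0.291). After Btg4, each step in that order was smaller than the SD over oocytes. No test was made between the stages, because the labels name no animals and each stage counts as 1 sample. Of the 6 members, 2 were higher and 1 was lower in MII by more than 1 on the log2 scale, where 25.8% and 31.8% of the 10068 genes were.

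Btg4 itself was read first in the mutant libraries. Its mRNA was 3293 and 4774 FPKM in Het replicates 1 and 2, and 1754 and 2345 FPKM in KO replicates 1 and 2. Both KO libraries were below both Het libraries, as for 22.0% of 8865 genes. In footprints it was 7009, 6346 and 6134 FPKM in Het replicates 1 to 3 and 1148, 971 and 907 in KO. All KO values lay below all Het values, as for 7.69% of 8526 genes. The KO libraries thus still held Btg4 mRNA and footprints (276 to 330 inferred reads each), and without the position of the mutation the level of the gene as a whole does not check the genotype. The footprint level fell by 2.69 on the log2 scale (SE 0.23, limma adjusted p = 0.00654), and the mRNA differed by -0.97 (SE 0.35, limma adjusted p = 0.0889), which did not pass the threshold of 0.05. Without Het replicate 1 the Btg4 mRNA difference was -1.23 and called (adjusted p = 0.0204). Mean Btg4 ranked 10 among all genes in Het mRNA, 20 in KO mRNA, 22 in Het footprints and 134 in KO footprints.

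Among the members tested in footprints, 3 of 5 passed: Btg2 and Tob2 were higher in KO and Btg4 was lower. Over all 8526 genes tested, 3.21% were called higher, 0.328% lower and 3.54% in either direction. Btg2 was at 0 in all 3 Het libraries and at 41.8, 160 and 96.6 FPKM in KO replicates 1 to 3, from 5, 27 and 17 reads. Every KO library was above every Het library, as for 16.8% of genes. The fitted difference of 6.45 (SE 0.64, limma adjusted p = 0.00793) depends on the pseudocount because Het was at 0. Against the 3 reads that a count of 0 allows over the Het group, or 7.30 FPKM, the pooled KO level of 105 FPKM was 14.5-fold higher. That ratio leaves out the counting error of KO, whose 95% Poisson interval was 78.0 to 139 FPKM, and so it is not a lower bound. The same kind of interval for the Het group reached 8.97 FPKM.

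Tob2 footprints were 1.51, 0 and 3.89 FPKM in Het replicates 1 to 3 and 54.8, 75.5 and 68.8 FPKM in KO. The groups did not overlap, with KO above Het as for 16.8% of 8526 genes, and the 3 KO values lay close together. The log2 difference was 4.86 (SE 0.69, limma adjusted p = 0.0202). Pooled, Tob2 had 2 reads in Het and 96 in KO, a ratio of KO to Het of 42.5 with a counting interval of 11.4 to 356. The call was lost with a pseudocount of 0.1 (adjusted p = 0.0770) and with median scaling (adjusted p = 0.0508). For orientation in the separate table of wild-type oocytes, the mean was 17.3 FPKM in FGO and 4.19 FPKM in MII.

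No member was called in footprints when any 1 of the 3 KO libraries was left out, and the same held for all genes of the table. Without KO replicate 1, 2 or 3, limma called 0 genes, with a smallest adjusted p between 0.0531 and 0.0662 and with 1200, 1315 and 1199 genes at an unadjusted p under 0.05. The log2 differences moved little: Btg2 ranged from 6.01 to 6.97, Tob2 from 4.25 to 5.40 and Btg4 from -2.79 to -2.62 over the 6 fits that leave out 1 library. Without any 1 Het library the 3 members were still called.

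Tob1, Btg1 and Btg3 did not pass in footprints. Tob1 was at 1.07, 0 and 0 FPKM in Het and 15.5, 7.30 and 1.75 FPKM in KO, from 0.75 and 11 reads in all. Its groups did not overlap, with KO above Het as for 16.8% of 8526 genes, but the KO values spread widely. The difference of 2.50 (SE 0.86) had an adjusted p of 0.185 by limma. Btg1 was at 12.1, 7.94 and 0 FPKM in Het and 29.3, 0 and 9.94 FPKM in KO, with ranges that overlapped and a log2 difference of 0.50 (95% interval -3.08 to 4.08, limma adjusted p = 0.898). Btg3 had a single read, in KO replicate 1 (2.06 FPKM), and stayed below the mean of 1 FPKM set for the test.

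**Figure D2:**
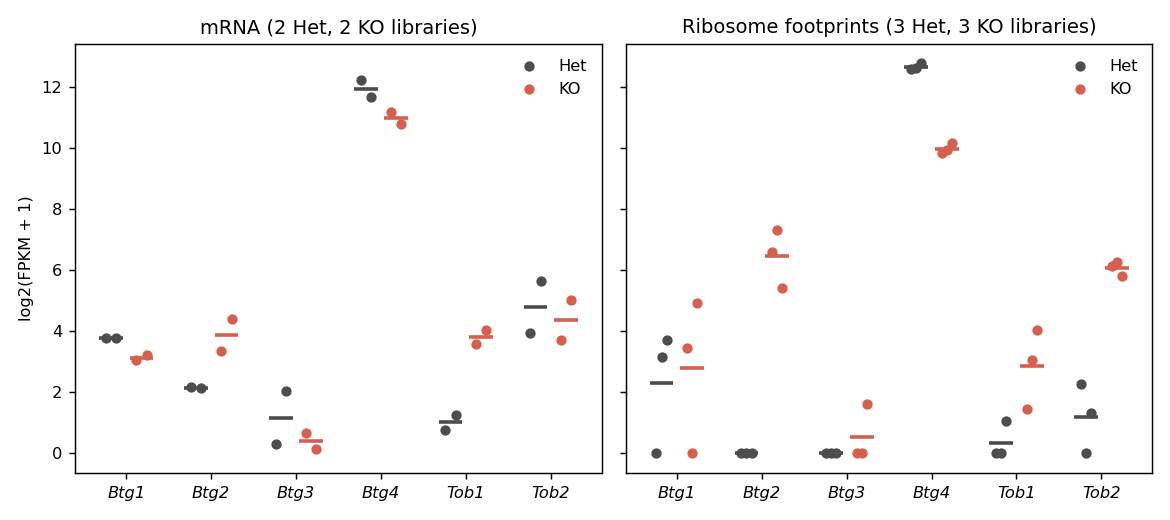
Level on the log2(FPKM + 1) axis of each member in Btg4 Het (grey) and KO (red) MII oocytes, for mRNA on the left and footprints on the right, with a point per library and a bar at the mean. In footprints Btg2 and Tob2 sit well above the Het libraries in all 3 KO libraries, and Tob2 overlaps between genotypes in mRNA.

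In mRNA, 2 of the 6 members passed, Tob1 and Btg2, both higher in KO. Over 8865 genes, 18.9% were called higher and 0.62% lower (19.5% in either direction). These libraries hold polyadenylated mRNA, and whether tail length affected its capture was not tested. Tob1 mRNA was 1.41 and 0.714 FPKM in Het replicates 1 and 2 and 15.5 and 11.0 FPKM in KO, with no overlap (as for 38.9% of genes). Its log2 difference was 2.79 (SE 0.38, limma adjusted p = 0.00216), and it was called in each of the 4 fits that leave out 1 library (2.55 to 3.04). Btg2 mRNA was 3.39 and 3.48 FPKM in Het and 20.2 and 9.15 FPKM in KO, again with no overlap. The difference was 1.73 (SE 0.43, limma adjusted p = 0.0251). It was 1.19 and not called without KO replicate 1 (adjusted p = 0.198), and not called with no filter on low values (adjusted p = 0.114).

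Tob2 and Btg1 mRNA did not pass. Tob2 mRNA was 49.2 and 14.2 FPKM in Het and 31.3 and 12.2 FPKM in KO. The genotypes overlapped, and within each genotype replicate 1 was higher. The log2 difference was -0.42 with a 95% interval of -1.82 to 0.98 (limma adjusted p = 0.652), and it was 0.44 without Het replicate 1 and -1.28 without Het replicate 2, where it was called (adjusted p = 0.0492). Btg1 mRNA was 12.9 and 12.7 FPKM in Het and 8.25 and 7.32 FPKM in KO. The KO libraries were below the Het libraries, as for 22.0% of 8865 genes. The difference of -0.65 (SE 0.34) had an adjusted p of 0.212 by limma. With median scaling it was -1.07 (adjusted p = 0.0464), and with quantile normalization -1.04 (adjusted p = 0.0464). Median scaling moved the median of all genes from 0.14 to -0.22 and the share of called genes that were higher in KO from 96.8% to 58.8%. Btg3 mRNA was 3.13 and 0.233 FPKM in Het and 0.0966 and 0.579 FPKM in KO, with overlap, and its difference of -0.78 (SE 0.52) had an adjusted p of 0.320 by limma. Without Het replicate 2 it was -1.65 and called (adjusted p = 0.00135).

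Footprint efficiency, meaning the KO minus Het difference in footprints less that in mRNA, was tested for 5 members. Btg2 was the 1 member called, with 4.73 (SE 0.89, limma adjusted p = 0.0431), where 0.853% of 7382 genes were called higher and 0.447% lower (1.3% in either direction). Its mean footprint level over its mean mRNA level was 0 in Het and 6.77 in KO. The Het group had 0 reads, and 3 reads there would be worth 7.30 FPKM, beside a mean of 3.43 FPKM in Het mRNA. The size of 4.73 thus depends on the pseudocount. With the replicate number as a block the adjusted p was 0.0681. The call was also lost in 8 of the 10 fits that leave out 1 library (adjusted p from 0.0534 to 0.289), and held without Het or KO footprint replicate 1. Without any 1 of the 4 mRNA libraries limma called 0 genes of the table, with 614 to 714 at an unadjusted p under 0.05. Tob2 had the larger estimate, 5.28 (SE 1.10), but an adjusted p of 0.0604 by limma, and its ratio of mean footprints to mean mRNA was 0.0567 in Het and 3.05 in KO. For Btg4 the difference was -1.72 (SE 0.37, limma adjusted p = 0.0672, and 0.0494 with the block), and its ratio was 1.61 in Het and 0.492 in KO. Tob1 differed by -0.29 with a 95% interval of -2.77 to 2.20 (limma adjusted p = 0.953), since its mRNA and footprints were both higher in KO by estimates of 2.79 and 2.50. For Btg1 the value was 1.15 with an interval of -3.51 to 5.82. The ratio of footprints to mRNA sets 2 library types side by side and carries no unit of ribosomes per transcript. Whether tail length affected the capture of mRNA, and through it this ratio, was not tested.

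**Figure D3:**
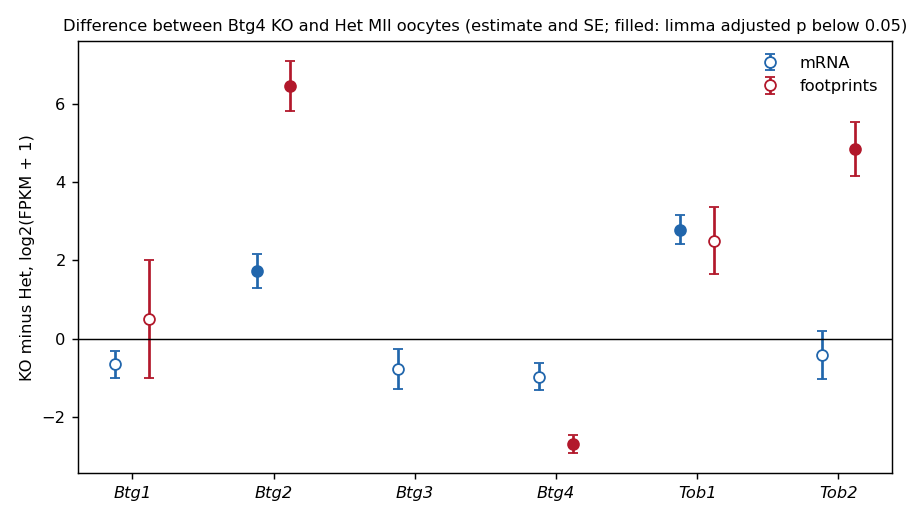
Difference between Btg4 KO and Het MII oocytes on the log2(FPKM + 1) axis for each member, in mRNA (blue) and footprints (red), as the limma estimate with its SE. Filled points have an adjusted p below 0.05: Tob1 and Btg2 in mRNA, and Btg2, Tob2 and Btg4 in footprints. Btg3 has no footprint point because it was below the filter.

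Tail lengths were available for 5 members in FGO and for Btg4 in all 5 libraries, with 1 number per gene and library. A tail of 0 was read as no value, and the sources used here give neither the reads behind a value nor how they were summarised. In wild-type FGO the Btg4 tail was 29.26 nt, longer than in 1.79% of 6353 genes, whose median was 54.06 nt. Tob1 was also short there, at 36.17 nt, longer than in 7.15% of genes. Tob2 (52.66 nt), Btg1 (53.76 nt) and Btg2 (60.47 nt) lay near the median. Btg3 had no value in any library.

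In wild-type MII the Btg4 tail was 36.87 nt, against a median of 47.45 nt over 229 genes. It was thus 7.61 nt longer than in FGO, from 1 library each, while the 224 genes with a value in both libraries had a median difference of -7.58 nt. Of those genes, 42.0% had a longer tail in MII, and 65.6% had a smaller difference than Btg4. In Het MII it was 72.11 nt (median 73.44 nt over 598 genes). In the KO libraries it was 52.95 nt (replicate 1, median 42.39 nt over 867 genes) and 100.83 nt (replicate 2, median 43.11 nt over 1416 genes), a mean of 76.9 ± 33.9 nt (SD, n = 2). The Het value lay between the 2 KO values, and the difference of 4.78 nt (SE 27.1, limma adjusted p = 0.937) takes its spread from the KO pair alone (1 residual degree of freedom), with the lone Het library assumed to vary like that pair. It cannot show that the genotypes are alike. The medians of single libraries cover different genes. Over the 272 genes with a value in Het and both KO libraries, the median KO minus Het difference was -9.21 nt. limma called 0.0% of the 272 genes tested, that is 0, with 65 at an unadjusted p under 0.05. The 2 KO libraries differed by 47.88 nt for Btg4, more than for 94.5% of the 636 genes with a value in both (median 10.07 nt). Tob2 had a value in 1 MII library, KO replicate 2, at 57.44 nt, and in the authors' deposited table the merged KO column gave 63.56 nt for it. The authors' deposited table gave 52.39 nt for Btg4 in the merged wild-type and Het column and 76.51 nt in the merged KO column.

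**Figure D4:**
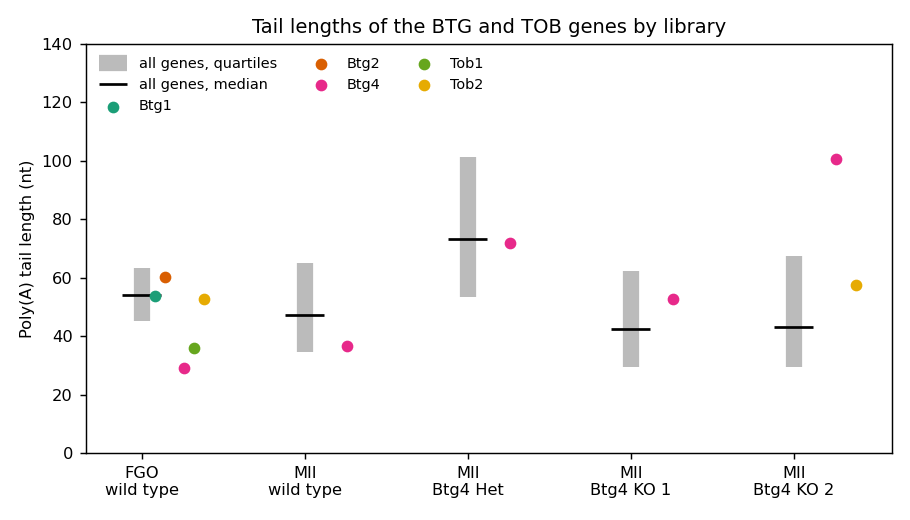
Poly(A) tail length in nucleotides for each member with a value (colored points, set to the right of each library's mark) in 5 libraries, with the quartiles (grey) and median (black) of all genes with a value there. Btg4 lies below the quartiles in FGO at 29.26 nt and differs between the KO libraries, at 52.95 and 100.83 nt.

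Genes of the machinery that the family works with were followed through lists of known partners. Of the 12 CCR4-NOT subunits, 3 rose in KO footprints and 0 fell, where 3.21% and 0.328% of all genes tested did. They were Cnot4 (7.97 to 71.4 FPKM, log2 difference 3.06), a ubiquitin ligase subunit, Cnot6l (92.7 to 425 FPKM, 2.18), a catalytic deadenylase, and Cnot3 (50.7 to 181 FPKM, 1.84), a scaffold-binding subunit. The median of the 12 was 0.80, and that of all genes tested was 0.27. The Cnot3 call was lost with the replicate block (limma adjusted p = 0.05001 against 0.0360 without it), 0 of the 12 were called with median scaling or without any 1 KO library, and without Het replicate 3 Cnot4 alone was. In mRNA 1 of 12 rose, Cnot9 (11.0 to 29.8 FPKM, 1.35), against 18.9% of all genes. The median of the 12 was 0.01 beside 0.14 for all genes, and -0.44 beside -0.22 with median scaling. Cnot9 lost its call in 5 of 12 alternatives, among them median scaling and leaving out either KO library (adjusted p up to 0.128). In single oocytes 5 of the 12 subunits were higher in MII by over 1 on the log2 scale and 0 were lower, where 25.8% and 31.8% of all genes were. Without MII oocytes 2 and 4 the counts were 4 and 2, against 2598 and 3491 of all 10068 genes. With upper quartile scaling the counts were 3 and 3, against 1299 and 5473 of all genes.

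Of 10 poly(A)-binding and cap-binding partners, 9 were tested. In mRNA 3 rose and 0 fell, where 18.9% and 0.62% of all genes did: Pabpc1l, the oocyte poly(A)-binding protein (7.45 to 38.9 FPKM, 2.28), Pabpn1l, a partner of BTG4 in maternal mRNA decay (525 to 1307 FPKM, 1.39), and the cap-binding protein gene Eif4e (67.0 to 145 FPKM, 1.12). Pabpc1l lost its call in 1 of 12 alternatives, Pabpn1l in 5 and Eif4e in 7, and without Het replicate 1 or either KO library 1 of the 9 was called. With median scaling 1 of the 9 was called higher and 2 lower, where 1051 and 735 of 8865 genes were. In footprints 1 of 9 rose, Pabpn1l (580 to 3098 FPKM, 2.55), and 1 fell, Eif4e1b, the oocyte form of Eif4e, by 1.85 (199 to 55.4 FPKM), against 3.21% and 0.328% of all genes. Each of these 2 calls was lost in 10 of 15 alternatives, among them no filter, median scaling, no trend and leaving out Het replicate 3. The medians of the 9 were 0.47 in mRNA and 0.26 in footprints, beside 0.14 and 0.27 for all genes. With median scaling these medians were 0.02 and -0.19, beside -0.222 and -0.0999 for all genes. The list of PAN, PARN and TOE1 deadenylases also held Pnldc1, Angel1, Angel2 and Noct. Of the 7 tested, 1 rose in mRNA, Pnldc1 (0.720 to 3.01 FPKM, 1.25), near the 18.9% of all genes. That call was lost in 6 of 11 alternatives, among them median scaling (adjusted p = 0.0511) and leaving out Het replicate 2 or either KO library. In footprints 0 of the 7 passed by limma (1 at an unadjusted p under 0.05), and Pan2, the most abundant, differed by -0.52 (adjusted p = 0.493).

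Because Btg2 behaves as an immediate-early gene in other cells, 14 such genes were listed. Of these, 3 were high enough to test in mRNA and 5 in footprints, and 0 passed by limma in either (1 and 0 at an unadjusted p under 0.05). Dusp1, a phosphatase gene and the most abundant of them, was 134 FPKM in Het and 76.6 in KO mRNA (-0.78, adjusted p = 0.102), and 307 and 201 FPKM in footprints (-0.56, adjusted p = 0.530). The summed level of the 14 was 251 to 540 FPKM in Het footprints and 205 to 300 in KO footprints, ranges that overlap. In mRNA it was 136 to 159 FPKM in Het and 84.1 to 94.0 in KO, ranges that do not overlap. Dusp1 made up most of that mRNA sum. Both KO libraries lay below both Het libraries for 22.0% of 8865 genes. Atf3, Ier2, Ier3, Klf6 and Nr4a1 were at 0 in all 6 footprint libraries.

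Markers of the oocyte and of other cells were read beside the members. In mRNA, 6 of 12 oocyte markers rose and 0 fell, where 18.9% and 0.62% of all genes did (median 0.89 beside 0.14 for all genes). Among them were Figla (2.48 to 38.6 FPKM, 3.53), Zp3 (84.6 to 891 FPKM, 3.42), Zp2 (67.1 to 476 FPKM, 2.84) and Nobox (33.8 to 242 FPKM, 2.80), whose calls held in all 12 alternatives. In footprints 2 of 12 rose, against 3.21% of all genes, Bmp15 (68.4 to 438 FPKM, 2.68) and Dazl (378 to 1695 FPKM, 2.17), and each lost its call in 8 of 15 alternatives, among them median scaling, no trend and leaving out Het replicate 2 or 3. Of 17 follicle cell markers, 3 were tested in mRNA, with a median of -0.46. Of these 3, Krt8 passed (0.676 to 2.30 FPKM, 0.98, limma adjusted p = 0.0497), and it did not pass in 10 of 11 alternatives. In footprints 0 of 3 passed by limma (0 at an unadjusted p under 0.05), and Serpine2, at 273 and 439 FPKM, made up most of the list (0.70, adjusted p = 0.293). Lyz2 was the 1 blood and immune marker tested, and it did not pass in mRNA (1.98, adjusted p = 0.206) or in footprints (-1.47, adjusted p = 0.611). The part of other cells in the members' differences was not tested.

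For each member tested in both assays, the genes with the most similar 3 log2 differences (MII against FGO footprints, KO minus Het footprints, KO minus Het mRNA) were found among 7382 genes measured in the same 48 libraries. Likeness is the root mean square gap between the 3 values. For Btg2 they were Cldnd1 (gap 0.255), Bet1 (0.284) and Atp1b1 (0.405), with footprint differences of 6.35, 6.72 and 6.16. For Tob2 they were Bclaf1 (0.194), Csnk1e (0.228) and Ywhab (0.315), with footprint differences of 4.78, 4.70 and 4.66 and mRNA differences of -0.10, -0.61 and -0.85. Among those of Tob1 were Thap11 (0.280) and Stat6 (0.318), and Btg1 was nearest to Htr7 (0.0524), Tra2a (0.0685) and Cetn4 (0.0701). Btg4 stood farther from any gene, with Dcp1a (1.03), Lysmd4 (1.22) and Omt2b (1.26) nearest.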

How the data were processed

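Footprints were from RNase I-digested lysates with cycloheximide, pelleted through sucrose, mRNA from Smart-seq2 and tails from end-extended total RNA on a PacBio Sequel II, per the labels' protocols. The authors deposited footprint and mRNA levels as FPKM per gene, and a tail length in nucleotides per gene and library. The submitters' processing notes name Cufflinks 2.2.1, STAR 2.5.3a, Trim Galore 0.4.2, cutadapt 1.14 and Bowtie2 2.2.2, and the builds mm9 and hg19, without their roles. Of 105 labelled samples, 53 had values, and 52 were not analysed here.

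Exact repeats of rows (231 in the Btg4 table, 1 in the tail table) were dropped. Genes averaging 1 FPKM or more were tested on log2(FPKM + 1) with limma 3.58.1 (R 4.3.3; lmFit, eBayes with trend, two-sided), separately for mRNA (2 against 2) and footprints (3 against 3), with an interaction of genotype and assay for efficiency and Benjamini-Hochberg adjustment over all genes tested at 0.05. Log2 differences understate ratios between low values above 0. Where a group was at 0, as for Btg2 footprints in Het, the pseudocount sets the size and can overstate it. The fits and the inference of reads were tested on simulated data. Inferred reads were whole within 0.03 for 80.8% (Tob1) to 100% (Btg2, Btg3) of a member's values above 0; no such step was found in mRNA, so no count test was run. Where labels name no separate animals, p-values measure only the spread between libraries, which may be technical. Same-numbered Het and KO footprint libraries deviated together (r over genes of 0.26, 0.42 and 0.16 for numbers 1, 2 and 3). Het 1 with KO 3 gave 0.098 and Het 3 with KO 1 gave 0.085, and the other unmatched combinations were negative. Deviations were taken from each genotype's mean, so positive values for a library force negative ones elsewhere. The negative values are thus no separate evidence of pairing. The numbers may pair the footprint libraries, which the main fits do not use. The fit with the replicate number as a block is given where it changes a call.

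The members and gene lists were chosen with earlier results of these data known. Named besides the members were, from each list, up to 4 genes called per fit by size of difference (the most abundant where none was called), and the 3 genes most like each member, of which 1 is not reported here. Alternatives were 2 other pseudocounts (0.1 and 5), no filter or a mean of 5 FPKM, median scaling, quantile normalization, the block, no trend, and leaving out libraries or oocytes. Promoters were matched by symbol, since the files' build has no genome here.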

Additional observations from a re-analysis of the deposited data

Results flagged for a closer look

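Btg2 differed between assays: the KO minus Het difference was 1.73 in mRNA and 6.45 in footprints on the log2(FPKM + 1) scale. The test of the difference between them (limma, interaction of genotype and assay) gave 4.73 (SE 0.89, adjusted p = 0.0431). All 3 KO footprint libraries lay above all 3 Het libraries, as for 16.8% of 8526 genes. Het footprints were at 0, where 3 reads over the group would be worth 7.30 FPKM. The sizes of 6.45 and 4.73 thus depend on the pseudocount. The call was lost with the replicate number as a block (adjusted p = 0.0681) and in 8 of 10 fits that leave out 1 library (adjusted p up to 0.289). Over the alternatives that keep all libraries, the adjusted p of Btg2 ran from 0.0165 with a pseudocount of 0.1 to 0.0753 with a pseudocount of 5.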

How the results depend on the processing

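No member's called difference changed sign under the alternatives run. In mRNA, 2 members were called as reported, 1 with no filter on low values, 3 (Btg1 also, lower in KO) with median scaling or quantile normalization, and between 1 and 4 when 1 library was left out (4 without Het replicate 2, 1 without KO replicate 1). Over all genes, 560 of 15509 were called in mRNA with no filter, 1786 of 8865 with median scaling and 1802 with quantile normalization. Of these, 735 with median scaling and 698 with quantile normalization were lower in KO, in place of 55. With the replicate number as a block, 4 members were called in mRNA (Btg1, Btg2, Btg4 and Tob1), and over all genes 4586 in place of 1732. The 2 same-numbered mRNA pairs correlated at r = 0.63, which with 2 pairs does not show pairing. In footprints, 3 members were called as reported, 0 with replicates 1 and 2 alone, and 0 to 3 when 1 library was left out. With replicates 1 and 2 alone, 0 of 8577 genes were called. The block changed no member's call in footprints. For efficiency, 1 member was called as reported, 0 with no filter, 3 with a mean of at least 5 FPKM (Btg2, Btg4, Tob2), 0 with median scaling and 0 to 1 when 1 library was left out. Over all genes, efficiency was called for 39 of 11362 with no filter, 127 of 4505 with a mean of at least 5 FPKM and 84 of 7382 with median scaling. With the block 49 genes in place of 96 were called for efficiency, and among members Btg4 in place of Btg2. In single oocytes, 2 members (Btg1, Btg4) had a higher mean in MII; 1 had with medians over oocytes and 1 with upper quartile scaling, Btg4 in both, and 2 when any 1 oocyte was left out. The Btg4 tail difference of 4.78 nt was 28.72 nt without KO replicate 1, -19.16 nt without KO replicate 2, values with no test since no spread is left. The causes of these shifts were not tested. Depth limits the low members most. Over the 3 Het footprint libraries, where both had a count of 0, 3 reads would be worth 7.30 FPKM for Btg2 and 1.79 FPKM for Btg3. The 95% Poisson intervals reached 8.97 and 2.21 FPKM.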
